A study of Drosophila melanogaster with 3 samples.

Results

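Hsf, the gene of the heat shock transcription factor, and 8 genes for large chaperones (Hsp83, Hsc70-3, Hsc70-4, Hsc70-5, Hsp60A, Hsp68, DnaJ-1 and Trap1) were examined for foxo binding in larvae of Drosophila melanogaster. They were chosen by name and with earlier results of these data known, as 9 of 13945 protein-coding genes. A summit was given to one of them when it lay inside the gene or within 1000 bp of it. By this rule 14 of the 9766 peak summits that passed the authors' reproducibility threshold belonged to them. Binding was measured by chromatin immunoprecipitation sequencing (ChIP-seq), in which DNA held by a protein is precipitated with an antibody, sequenced and searched for peaks. All samples came from 1 fly line, the strain foxo-MiMIC-GFP, in which an eGFP exon within a foxo intron turns the gene's own product into a foxo-eGFP fusion, and the antibody was raised against GFP. The animals were whole wandering larvae of the third instar, males and females pooled, and chromatin was sonicated to 200 to 800 bp. There were 3 biological replicates, which form 1 group, and a peak list of untagged animals or of input DNA was not analysed here. All cell types of the larva were mixed in each library, so a low peak may be a site bound in few cells or one bound weakly in many, and these cannot be told apart.

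Chaperones help other proteins to fold and keep damaged ones from clumping. Hsp90 and Hsp70 proteins use ATP to do so, J-domain proteins hand clients to Hsp70, and chaperonins enclose a protein in a barrel; most compartments of the cell have their own set. When unfolded proteins accumulate, the heat shock factor forms a trimer and binds heat shock elements, inverted repeats of the unit GAA, near the start of its target genes. foxo is a forkhead factor that enters the nucleus when insulin signalling is low or stress kinases are active, and it is known for turning on genes of stress resistance in flies.

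The 9766 thresholded peaks are called the optimal list below. A relaxed list of 30000 regions also existed for every replicate and for the pool of 3, which reaches down into background. Signal is the value that the authors' caller gave to a peak, and peaks are called higher or lower by this value. It was compared only within a list, and between lists the rank by signal was used, with rank 1 the highest. The top peaks of a replicate are its 9766 regions of highest signal, as many as the optimal list holds, and peaks of 2 lists were matched when their summits lay within 100 bp. Distances from a transcription start site (TSS) are negative upstream of it and positive downstream, in the direction of the gene's transcription.

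foxo peaks lay at 7 of the 9 genes, all but Hsf and Hsp68, the heat-inducible Hsp70 relative. Among all protein-coding genes 40.0% had an optimal summit by the same rule. Within 1000 bp of one of the gene's own TSSs the count was 6 of 9, since the summit of Hsc70-4 lay past the 3' end of the gene, against 32.8% of all protein-coding genes. In the replicates taken alone, 7 of the 9 genes had a top peak in replicate 1 (42.8% of all genes), 6 in replicate 2 (39.2%) and 8 in replicate 3 (40.3%), which gives 7.0 ± 1.0 genes (SD, n = 3) beside 40.8% ± 1.83 of all genes. DnaJ-1 was the gene missed in replicate 2, and Hsf was the one added in replicate 3. A top peak was present in all 3 replicates at Hsp83, Hsc70-3, Hsc70-4, Hsc70-5, Hsp60A and Trap1, which is 6 of 9 genes against 34.0% of all genes. An optimal summit that was itself matched in the top peaks of all 3 replicates stood at 5 of 9, these 6 without Hsc70-4, against 31.9% of all genes. In the relaxed pooled list the same 7 genes had a region, against 55.4% of all genes. The 9 genes were chosen with earlier results of these data known, so these counts are not independent support for binding at chaperone genes. With the genes so few and chosen by name, no test was made of the counts. With 1 group and no control list there was no contrast to test.

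**Figure D1:**
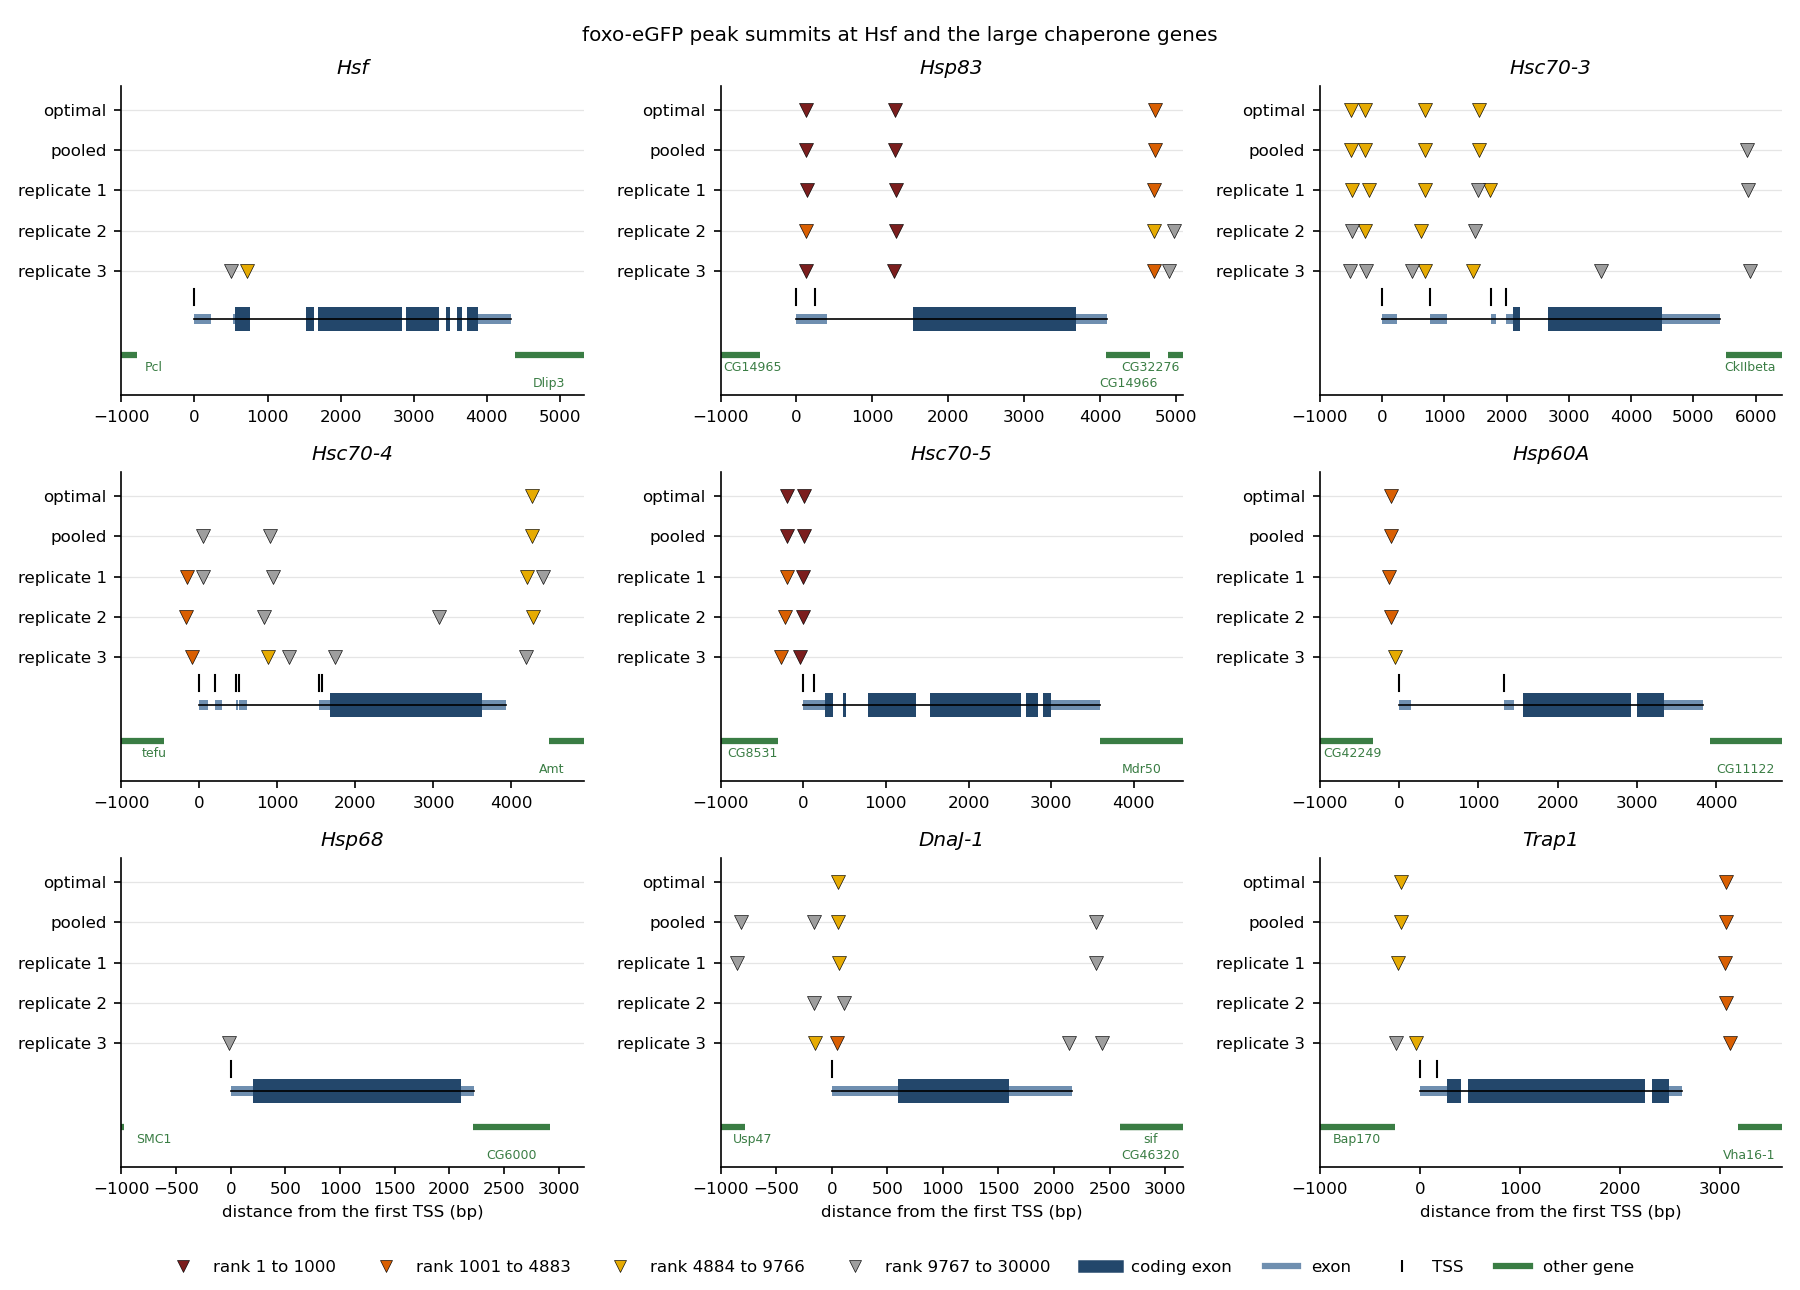
Peak summits at each of the 9 genes in the optimal, pooled and replicate lists, by distance from the gene's first TSS in bp (x axis, transcription to the right) and coloured by rank in the list; gene models and neighbouring protein-coding genes are drawn below. Hsp83, Hsc70-5 and Hsp60A have summits near the same places in every list, and Hsf and Hsp68 have regions in replicate 3 only. Hsc70-4 has a promoter summit upstream of its first TSS in each replicate that the optimal list lacks. The pooled list has a region there with its summit at 40 bp and rank 12295.

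The sequences under the peaks are shown here for the genes on which the results turn, read from NCBI Release 6 of the genome (dm6), 5' to 3' on the strand of the gene. Capitals mark matches to the motifs searched that occur in them: the heat shock element pair GAANNTTC, the forkhead core, in the forms ATAAACA and ATAAATA, and likewise in the forms GTAAACA and GTAAATA, the E-box CACGTG and, in Hsp68, a longer run of 3 heat shock units. The longer windows, of 75 bp on either side, are centred on a summit, or, for Hsp68, on the point 100 bp upstream of its TSS, and sites of 30 bp are given where the window would reach into a UTR. The set comprises the highest peak of the 9 genes (Hsp83, in an intron, with no motif of the panel), the TSS peaks with a heat shock element (Hsp83, DnaJ-1 and, in replicate 1, Hsc70-4), a TSS peak with forkhead cores (Hsp60A), an E-box beside the highest summit of Hsc70-3, and the promoter of Hsp68, rich in heat shock elements and without an optimal peak.
Hsp83, intron summit, chr3L:3194193-3194343, plus strand: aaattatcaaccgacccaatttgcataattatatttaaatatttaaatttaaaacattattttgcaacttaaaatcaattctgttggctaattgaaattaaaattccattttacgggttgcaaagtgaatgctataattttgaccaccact
Hsp83, site beside the TSS summit, chr3L:3193137-3193166, plus strand: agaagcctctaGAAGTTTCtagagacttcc
DnaJ-1, site beside the TSS summit, chr3L:5752178-5752207, minus strand: agaagcatccaGAAATTTCgacgtagacga
Hsc70-4, promoter summit of replicate 1, chr3R:15242450-15242600, plus strand: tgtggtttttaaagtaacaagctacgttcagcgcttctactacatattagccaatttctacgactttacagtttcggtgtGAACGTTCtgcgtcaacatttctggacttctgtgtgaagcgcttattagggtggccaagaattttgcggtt
Hsp60A, TSS summit, chrX:11108312-11108462, plus strand: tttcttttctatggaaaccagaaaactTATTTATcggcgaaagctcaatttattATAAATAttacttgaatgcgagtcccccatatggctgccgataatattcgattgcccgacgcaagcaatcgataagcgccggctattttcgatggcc
Hsc70-3, site beside the highest summit, chrX:11806400-11806429, minus strand: gccccagagttgCACGTGtgtgtgtgtgcc
Hsp68, promoter, chr3R:24057335-24057485, minus strand: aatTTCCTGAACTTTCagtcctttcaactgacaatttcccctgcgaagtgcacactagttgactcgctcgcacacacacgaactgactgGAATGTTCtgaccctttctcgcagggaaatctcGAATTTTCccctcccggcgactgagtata

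Hsp83, which encodes the cytosolic Hsp90, had the highest foxo peak of the 9 genes. The gene lies on chr3L:3192969-3197059 on the plus strand and had 3 optimal summits. The highest stood in the long first intron, at 1299 bp from the first TSS (peak chr3L:3194050-3194449), with a signal of 1824 and rank 320 of 9766. Its matched peaks had a signal of 738 in replicate 1, 727 in replicate 2 and 420.4 in replicate 3, and ranked 269, 332 and 352. All 3 replicates thus placed it within their highest 352 peaks, with summits that moved by 10 to 14 bp.

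A further Hsp83 summit lay in the 5' UTR between the 2 annotated TSSs of the gene, at 130 bp from the first and -117 bp from the second (chr3L:3192898-3193288, signal 1232, rank 721). It ranked 536 in replicate 1, 1520 in replicate 2 and 505 in replicate 3, lower in replicate 2 than in both others. The nearest TSS of another gene, CG14965, was 608 bp away. The heat shock element pair printed above for this peak was centred 52.5 bp downstream of the summit. The lowest of the 3, with a signal of 386 and rank 3983, was intergenic beyond the 3' end, at -57 bp from the TSS of CG14966, and ranked 3519, 5121 and 3803 in replicates 1, 2 and 3. All 3 Hsp83 summits were in the top peaks of every replicate.

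Hsc70-4, the main constitutive Hsp70 of the cytosol, had a promoter peak in every replicate that was missing from the optimal list. The gene lies on chr3R:15242687-15246614 on the plus strand. The promoter summit stood at -162 bp from the first TSS in replicate 1 (signal 215, rank 2502), at -170 bp in replicate 2 (signal 257, rank 2035) and at -100 bp in replicate 3 (signal 124.5, rank 3057). In each replicate it was the highest peak of the gene and well inside the top peaks. The pooled list had no summit within 100 bp of the one in replicate 1; its nearest region, at 40 bp past the TSS, had a signal of 114 and rank 12295, below the optimal threshold. The 3 replicate peaks overlap, and the pooled region chr3R:15242497-15242956 covers the summits of all 3. Of 3 heat shock element pairs in the TSS windows of the gene, the one printed above was centred at -153.5 bp from the first TSS, and the replicate summits lay -8.5, -16.5 and 53.5 bp from it in replicates 1, 2 and 3. The other pairs, at 69.5 bp and -34.5 bp from their nearest TSS, had their nearest top summit of any replicate at -372.5 bp and at 443.5 bp, both in replicate 3.

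Few of the peaks shared by all replicates were missing from the optimal list in this way. Of the 6326 top peaks of replicate 1 that were matched in the top peaks of both other replicates, 65 had no optimal summit within 100 bp (1.03%), 50 had no pooled summit within 100 bp (0.790%), and 30 were overlapped by no optimal peak (0.474%). The 65 peaks ranked 534 to 9398 in replicate 1, with a median of 4485. The Hsc70-4 promoter is one of 11 of them at rank 2502 or higher, where 2388 such shared peaks lie. Why these peaks are absent from the optimal list was not tested.

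The 1 optimal summit that the rule gave to Hsc70-4 was elsewhere, in the short intergenic stretch between the 3' ends of Hsc70-4 and of Amt, an ammonium transporter gene that runs toward it. It lay 2696 bp downstream of the nearest Hsc70-4 TSS and 2185 bp downstream of that of Amt (chr3R:15246722-15247181), with a signal of 201.5 and rank 7638. It ranked 6410 in replicate 1, 9509 in replicate 2 and 14623 in replicate 3, so in replicate 3 it was outside the top peaks.

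DnaJ-1, a J-domain cochaperone of the cytosolic Hsp70s, had an optimal peak over its only TSS. The gene lies on chr3L:5750029-5752189 on the minus strand, and the summit was in the 5' UTR at 57 bp (chr3L:5751902-5752361, signal 253, rank 6157). The matched peak ranked 5864 in replicate 1, 13278 in replicate 2 and 3689 in replicate 3. It was in the top peaks of replicates 1 and 3 and outside those of replicate 2. The heat shock element pair was centred at -3.5 bp from the TSS, which is 60.5 bp upstream of the summit. A smaller region at -153 bp was in the top peaks of replicate 3 (rank 8968), and in replicate 2 a region at -160 bp ranked 25038.

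Hsc70-3, the Hsp70 of the endoplasmic reticulum (known as BiP in mammals), had many low peaks spread over its alternative promoters. The gene lies on chrX:11801696-11807117 on the minus strand with 4 annotated TSSs. Its 4 optimal summits had signals of 294, 235, 165.5 and 161, all below the median of all optimal peaks. The highest (chrX:11806353-11806554, rank 5302) was intronic, at -73 bp from its nearest TSS, and ranked 5312, 5924 and 5090 in replicates 1, 2 and 3. This summit alone was in the top peaks of every replicate. An E-box, printed above, was centred 11.5 bp downstream of it.

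Of the other Hsc70-3 summits, the one at -274 bp from the first TSS ranked 5780, 6528 and 11051 in replicates 1, 2 and 3, and the one at -495 bp ranked 9618, 10508 and 14355. The lower intronic summit, at -191 bp from a downstream TSS, ranked 11030 and 15593 in replicates 1 and 2 and had no match in replicate 3, where the nearest top peak, rank 8324, stood at 1456 bp from the first TSS. The nearest TSS of another protein-coding gene, CG1578, was at least 8131 bp away from each of the 4 summits.

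Hsp60A, the chaperonin of the mitochondrial matrix, had a single region in each list, at its first TSS. The gene lies on chrX:11108482-11112308 on the plus strand. The optimal summit (chrX:11108219-11108454) was intergenic at -95 bp, with a signal of 376 and rank 4105. The replicate summits stood at -121, -103 and -56 bp and ranked 4190, 3304 and 7556 in replicates 1, 2 and 3. All were top peaks, with replicate 3 the lowest. Both forkhead cores printed above lay upstream of the summit, centred at -45 and -18 bp from it.

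Hsc70-5, the mitochondrial Hsp70, had a promoter pair of summits shared with a J-domain gene. It lies on chr2R:14252598-14256192 on the minus strand, back to back with CG8531, a gene of the J-domain list. The higher summit was in the 5' UTR at 6 bp from the first TSS (chr2R:14255971-14256546, signal 1434, rank 541). Its matched peaks had signals of 519 in replicate 1, 586 in replicate 2 and 335 in replicate 3, and ranked 592, 540 and 575. These 3 ranks are the closest to one another among the highest peaks of the 7 genes. The lower summit, within the same peak interval, was at -200 bp from Hsc70-5 and -101 bp from CG8531, with a signal of 1045 and rank 972, and ranked 1025, 1533 and 4050 in replicates 1, 2 and 3. It was thus nearer to CG8531, and lower in replicate 3 than in both others.

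Trap1, the mitochondrial Hsp90, had its highest peak in front of a neighbour and a low one at its own start. The gene lies on chr2R:6633647-6636262 on the minus strand. The higher summit (chr2R:6633101-6633361, signal 524, rank 2736) lay past the 3' end of Trap1, 2880 bp downstream of its nearest TSS, and at -117 bp from Vha16-1, which encodes a subunit of the vacuolar proton pump. It ranked 3321, 2209 and 3884 in replicates 1, 2 and 3, all top peaks. The summit at Trap1's own TSS was at -190 bp from it and at -60 bp from Bap170, a subunit gene of a chromatin remodelling complex (chr2R:6636222-6636681, signal 177.5, rank 8530). It ranked 8070 in replicate 1, had no match in replicate 2, and ranked 17447 in replicate 3, where another region at -38 bp ranked 8333. The promoter signal of Trap1 was therefore seen in replicates 1 and 3 and in no region of replicate 2.

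Hsp68, a heat-inducible Hsp70, and Hsf, the transcription factor of the heat shock response, had no optimal peak and few regions in any list. Hsp68 (chr3R:24055080-24057310, minus strand) had 1 region in all lists, at -18 bp in replicate 3 with a signal of 15.4 and rank 26449. Its TSS window, from 250 bp upstream to 50 bp downstream, held 4 heat shock element pairs, centred at -49.5, -82.5, -163.5 and -173.5 bp, of which 3 fall wholly inside the printed sequence. Hsf itself had no region in the optimal, pooled, replicate 1 or replicate 2 lists. In replicate 3 it had 2 regions, the higher in a coding exon at 723 bp past its TSS, with a signal of 48.0 and rank 9336, close to the last rank counted as a top peak. Neither gene can be called unbound from these lists, which carry no depth. Neither had a region in the pooled list, and the regions of replicate 3 had no counterpart in replicates 1 and 2.

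Of the 14 summits, 5 were nearer to a TSS of another protein-coding gene (CG14966, Amt, CG8531, Vha16-1 and Bap170) than to any of the chaperone gene. The remaining 9 were nearest to the chaperone gene itself: 2 at Hsp83, 4 at Hsc70-3, and 1 each at Hsc70-5, Hsp60A and DnaJ-1. Within 1000 bp of an own TSS lay 10 of the 14, of which 8 were upstream of it. These positions were not counted over all optimal summits, so they cannot be called particular to the 9 genes. In the top peaks of all 3 replicates were 8 of the 14 summits, against 65.2% of all optimal peaks, and 12 of 14 had a match in the full lists of all 3, against 87.8%. The 2 without were the intronic summit of Hsc70-3 at -191 bp, unmatched in replicate 3, and the TSS summit of Trap1, absent from replicate 2. The Hsc70-3 summit stood at 1562 bp from the first TSS. Replicate 3 had a top peak at 1456 bp (rank 8324), just outside the matching distance of 100 bp. With summits matched within 200 bp the count was 13 of 14.

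By signal the 14 summits spanned most of the optimal list and were centred near its middle. Their signal had a median of 335 and ranged from 161 to 1824, beside a median of 321 and a range of 150.7 to 10606 over all optimal peaks. Their median rank was 4703.5 of 9766. Taking the highest summit of each gene, the median was 376 over the 7 chaperone genes and 502 over the 5572 protein-coding genes with a summit. Hsp83 was higher than 91.9% of these genes and Hsc70-5 than 87.3%. Trap1 stood at 52.2%, Hsp60A at 36.3%, Hsc70-3 at 25.8%, DnaJ-1 at 19.3% and Hsc70-4 at 10.1%. The Trap1 value is that of the summit beside Vha16-1, and the summit at Trap1's own TSS had a signal of 177.5. The Hsc70-4 value is that of the summit past its 3' end. Its promoter peak, which had no optimal summit, ranked 2502, 2035 and 3057 in replicates 1, 2 and 3. A chaperone gene with a summit had a median of 2 (1 to 4), against a median of 1 (1 to 37) for all such genes. Peak width had a median of 460 bp in both sets, and the GC content within 100 bp of the summit a median of 37.0% at the chaperone genes and 35.3% at all optimal peaks.

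**Figure D2:**
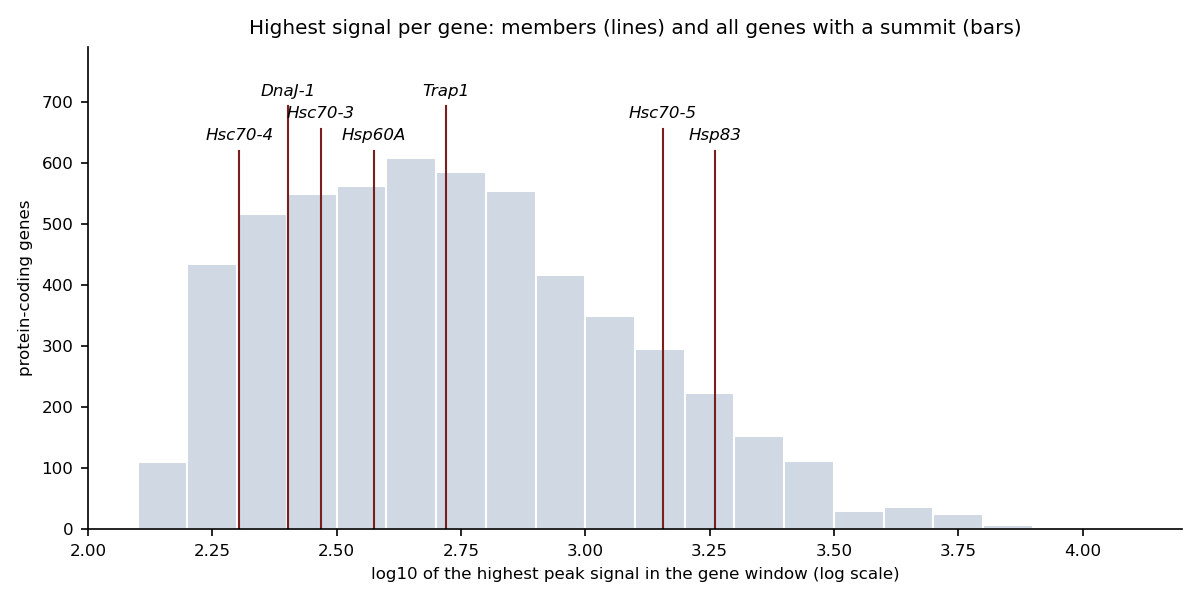
Highest optimal peak signal per gene, as log10 on the x axis, for the 7 chaperone genes (red lines) and for all 5572 protein-coding genes with a summit (bars, number of genes on the y axis). Hsp83 and Hsc70-5 stand in the upper tail, Trap1 near the middle and the other 4 in the lower part.

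The order of the genes by peak rank was set over the 3 replicates by the geometric mean rank of the highest optimal peak. It ran Hsp83 (316), Hsc70-5 (569), Trap1 (3054), Hsp60A (4712), Hsc70-3 (5431), DnaJ-1 (6598) and Hsc70-4 (9624). The place of Trap1 rests on the summit beside Vha16-1. The summit at Trap1's own TSS ranked 8070 in replicate 1 and 17447 in replicate 3 and had no match in replicate 2. The replicate ranks of Hsp83 (269 to 352) and Hsc70-5 (540 to 592) did not overlap, nor did those of Hsc70-5 and Trap1 (2209 to 3884). From Trap1 on, each gene's range overlapped that of the next: Hsp60A ranged from 3304 to 7556, Hsc70-3 from 5090 to 5924, DnaJ-1 from 3689 to 13278, and Hsc70-4 from 6410 to 14623. The order of neighbours among these last 5 is therefore within the spread between replicates. Genes further apart in it could still be separated: the range of Trap1 did not overlap those of Hsc70-3 and Hsc70-4, nor did that of Hsc70-3 overlap that of Hsc70-4. With its promoter peak (ranks 2502, 2035 and 3057) in place of the optimal one, Hsc70-4 would overlap Trap1 in the order.

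**Figure D3:**
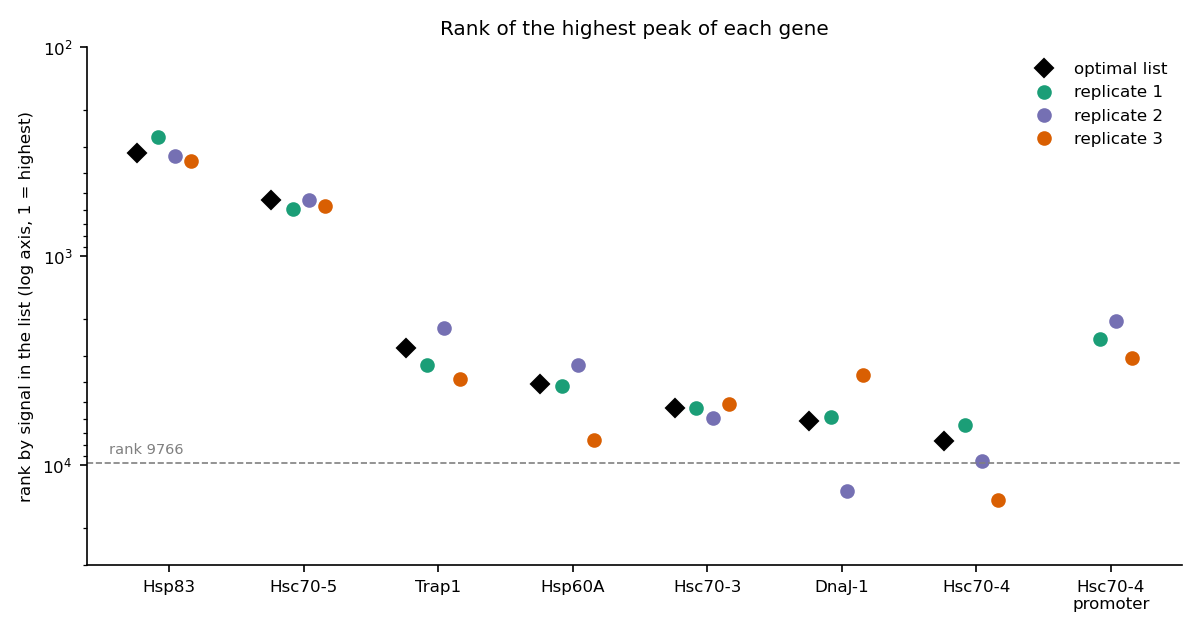
Rank of the highest optimal peak of each gene (diamonds) and of its match in each replicate (circles), on a log axis with rank 1 at the top; the last column gives the Hsc70-4 promoter peak found in the replicates. Hsp83 and Hsc70-5 stay between ranks 269 and 592 in every replicate, DnaJ-1 spans 3689 to 13278, and the Hsc70-4 promoter peak lies at 2035 to 3057. The Trap1 column shows its peak beside Vha16-1.

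Motifs were searched on both strands within 100 bp of each summit, and in TSS windows from 250 bp upstream to 50 bp downstream. A match is a description of the letters only. The heat shock element pair was present at 2 of the 14 summits (Hsp83 and DnaJ-1), beside 5.91% of all optimal summits. In TSS windows 5 of the 9 genes had it (Hsp83, Hsc70-4, Hsp60A, Hsp68 and DnaJ-1), beside 12% of all protein-coding genes. Counted by window, 7 of the 21 TSS windows of the 9 genes had it, beside 9.37% of all TSS windows. Such elements are a known feature of heat shock genes, and the 9 genes, chosen by name, include some of these. A longer match, of 3 alternating units of GAA and its reverse complement, spaced by 2 bases, holds a whole pair within it. It stood at 0 of the 14 summits, beside 0.328% of all, and in the TSS windows of Hsc70-4 and Hsp68, beside 0.567% of all genes. Of the 10 heat shock element pairs in the TSS windows of the 9 genes, 2 lay within 100 bp of an optimal summit, beside 142 of 1691 in the windows of all protein-coding genes (8.4%), and 1 of the 3 pairs of Hsc70-4 lay that close to a top summit of each replicate but to no optimal one.

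The forkhead core, the sequence that foxo and its relatives recognise, was present at 5 of the 14 summits, beside 36% of all optimal summits. These were both summits of Hsc70-5, the TSS summits of Hsp60A and Trap1, and the summit of Hsc70-3 at -495 bp. In the Trap1 TSS peak the core was centred on the summit itself, while in Hsc70-5 it was centred 91 bp upstream of the higher summit. None of the 3 Hsp83 summits had one. In TSS windows 7 of the 9 genes had a core, all but DnaJ-1 and the gene Hsf, beside 51.9% of all genes. A gene with more TSSs has more windows. Counted by window, 10 of the 21 TSS windows of the 9 genes had a core, beside 43.7% of all TSS windows.

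Of the motifs of general promoters, GAGAG was at 2 of the 14 summits, both of Hsc70-3, beside 23.1% of all optimal summits. The DRE, TATCGATA, was at 1 (the Trap1 TSS, beside 2.97%), the Ohler 1 motif, GGTCACAC, at 1 (Hsp60A, beside 2.19%), and the E-box at 1 (Hsc70-3, beside 1.83%). The TSS windows of 4 of the 9 genes held GAGAG (36.4% of all genes) and those of 3 the DRE (10.2%). That of 1 gene held the Ohler 1 motif (8.71%) and those of 3 the E-box (5.34%). Counted by window, GAGAG was in 9 of the 21 TSS windows of these genes, beside 33.2% of all TSS windows. The DRE was in 3 (7.99%), the Ohler 1 motif in 1 (6.72%) and the E-box in 3 (4.03%). No panel motif was found within 100 bp of 5 summits: the highest and the lowest of Hsp83, the one of Hsc70-3 at -274 bp, that of Hsc70-4 and the Trap1 summit beside Vha16-1. Summits without a panel motif were not counted over the whole optimal list.

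**Figure D4:**
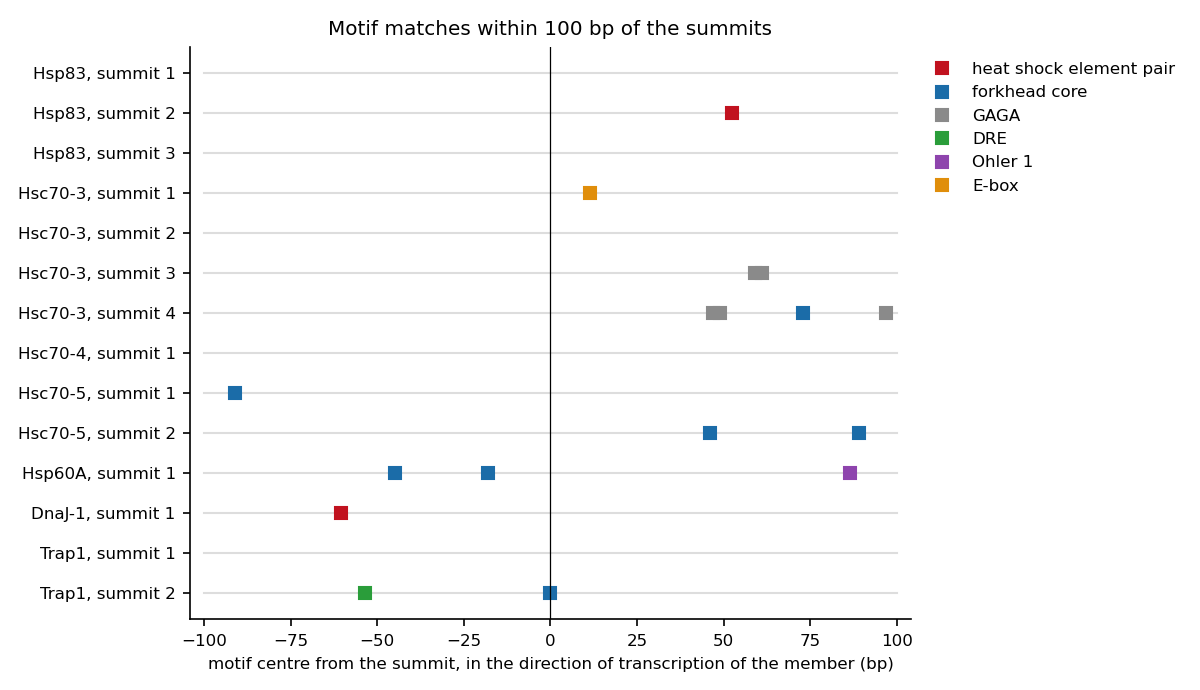
Centres of motif matches within 100 bp of each of the 14 summits (rows), in bp from the summit in the direction of the gene's transcription. Heat shock element pairs (red) appear at 2 summits and forkhead cores (blue) at 5, at distances from 0 to 91 bp, and 5 summits have no match.

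The foxo peaks of the 9 genes were set beside those of other proteostasis genes in 9 lists, of 93 genes in all. These lists, like the 9 genes, were chosen with earlier results of these data known. An optimal summit in the gene or within 1000 bp was found for 7 of the 9 (77.8%), against 51 of these 93 (54.8%) and 40.0% of all protein-coding genes. The 93 include the 6 Hsp70 copies, whose largely repeated sequence makes them not comparable, which lowers that share. The share was highest for endoplasmic reticulum chaperones and the unfolded protein response, with 14 of 17. J-domain proteins had 14 of 20, nucleotide exchange factors and Hsf regulators 3 of 4, and small heat shock proteins 8 of 12. These counts are not all separate, since some genes are in several lists and neighbouring genes can share a peak. Sil1, Grp170 and P58IPK, each with a summit, count for the endoplasmic reticulum and again in another list. Gp93 and Roe1, without a summit, are also in several lists. In the list of small heat shock proteins Hsp22 and CG4456, entered there under its other name Hsp67Bb, had the same highest signal (756). So did Hsp26 and Hsp67Ba (1424). The J-domain gene CG8531 is counted through the peak it shares with Hsc70-5. Hsp90 cochaperones had 6 of 12 and the other Hsp70 relatives 2 of 4. The chaperonin TRiC with prefoldin had 5 of 14, mitochondrial chaperones and proteases 2 of 9, and the Hsp70 copies 0 of 6. The lists leave out the 9 genes themselves, so the shares of compartments depend on this split. The mitochondrial list lacks Hsc70-5, Hsp60A and Trap1, and that of the endoplasmic reticulum lacks Hsc70-3, all with a summit.

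Among the 2 highest genes of each list, 7 had a signal above the 1824 of Hsp83. Hsp27, a small heat shock protein gene, peaked at a signal of 5397, -149 bp from its start site, and Hsp26 at 1424, -134 bp from its own. Lon, the mitochondrial matrix protease, had 3477 just upstream of its TSS, at -105 bp, and CG11267, in the same list, 655 at -112 bp. Hrd3, of the pathway that removes misfolded proteins from the endoplasmic reticulum, had 2860 at -140 bp, and Pdi, a protein disulfide isomerase, 1754 at a summit 126 bp from the TSS of CG12316. Among J-domain genes CG7872 had 2738 at 1588 bp and mrj 1828 at -319 bp. Of the Hsp90 cochaperones Dpit47 had 4676, nearer to Adf1, and Stip1 had 2018, at -15 bp from Pi3K21B. stv, a BAG-family cochaperone, had 1122 at -614 bp and Sil1 984 at -317 bp from Cad96Cb. In the remaining lists mgr, a prefoldin subunit, had 1047 at -51 bp, Pfdn6 532 nearer to Su(z)12, Grp170 489.7 at -40 bp from CG2924, and Hsp110 161 at 46 bp. The peaks of Stip1, Sil1, Pdi and Grp170 lay 2743, 2891, 5784 and 3977 bp downstream of the gene's nearest own TSS.

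**Figure D5:**
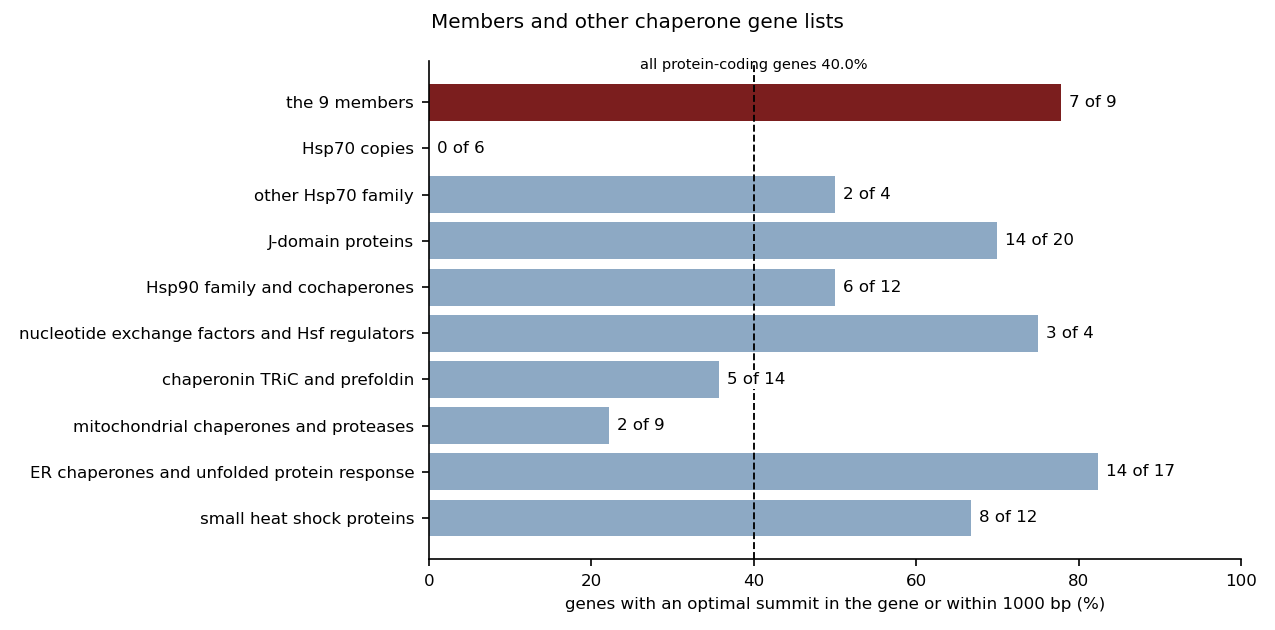
Share of genes with an optimal summit in the gene or within 1000 bp (x axis, percent), for the 9 genes (red) and 9 lists of other proteostasis genes (blue), with the counts beside the bars; the dashed line is the 40.0% of all protein-coding genes. The lists for the endoplasmic reticulum (14 of 17) and for mitochondria (2 of 9) lie on opposite sides of the line. The Hsp70 copies are drawn too, but their largely repeated sequence makes them not comparable.

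The 6 Hsp70 copies, the classical heat-inducible genes, cannot be compared with the 9 genes in these lists. Of the 36-base words within 250 bp of their first TSS 0 to 32.2% occur once in the genome, and whether reads from them were placed uniquely was not tested. The same share was 100% at each of the 9 genes and within the summit windows of all 14 peaks. Over the whole gene with 1000 bp on either side it was 96.7% for Hsp83 and 100% for the other 8. The loci of Hsf and Hsp68 therefore held no repeated word of this length.

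The genes most like the highest members in rank over the 3 replicates were looked for among the highest TSS peaks of all protein-coding genes. For the TSS peak of Hsp83 (ranks 536, 1520 and 505) these were Nelf-E, of the negative elongation factor, and RpL14, a ribosomal protein gene, which share 1 peak of ranks 587, 1637 and 763. The summed absolute difference in log2 rank was 0.83. For Hsc70-5 (592, 540 and 575) they were Atg17, an autophagy gene, and Xe7, which share 1 peak of ranks 580, 537 and 631, with a summed difference of 0.17. For Trap1 none could be named, since its TSS peak had no match in replicate 2.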

How the data were processed

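The authors deposited narrowPeak lists on dm6 for 3 foxo-eGFP ChIP-seq libraries of whole larvae: for each library and for the pool, 30000 relaxed regions meant for irreproducible discovery rate (IDR) analysis, and 1 optimal list past its threshold, per the labels and file listings. The signal column of these deposited lists is the value of the authors' peak caller, of unstated normalization, and ranks peaks within a list. The sources used here do not give the aligner, peak caller, IDR threshold or library depths. All 9766 optimal peaks were found unchanged in the pooled list, as its highest 9766. The dm3 lists were not used.

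Summits (start plus offset) on 6 chromosome arms were assigned to genes and TSSs of Ensembl release 115 (13945 protein-coding genes, 19607 distinct TSSs), with 1000 bp on either side. The same assignment over all genes gave the background. Lists were matched by summits within 100 bp; of several matches the nearest was taken. Where features overlapped, UTRs took precedence over coding exons, and exons over introns. Of 109 written list symbols 7 were not in the annotation.

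Named were all 9 genes, every gene whose TSS was nearer to one of their summits, the 2 highest bound genes of each list, and the 2 genes most alike in replicate rank for the 3 highest members; genes beside the peaks of list genes and beside TSS peaks were named for their position. The members and lists were chosen with earlier results of these data known. There was 1 group, so no test between groups was made, and the spread given is over 3 biological replicates. Alternatives were other windows, the highest 4883 peaks, the pooled list, other matching distances, each replicate left out, and other motif windows. Assignment, matching and motif search were tested on simulated data. Python 3.11.15, numpy 2.4.6, pandas 2.3.3 and matplotlib 3.10.9 were used.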

Additional observations from a re-analysis of the deposited data

How the results depend on the processing

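Of 69 alternatives 51 left a value within 1.5 times a count or within the replicate spread of a rank, and 18 moved it. The count of 7 genes with a summit fell to 4 with the gene body alone (17.7% of all genes) and to 4 in the highest 4883 optimal peaks (28.2%). In these peaks 3 genes had a summit near a TSS, in place of 6 (22.0% of all genes). With 4883 top peaks per replicate 5 summits, in place of 8, were in all 3. With the gene body alone a mean of 3.67 genes per replicate, in place of 7.0, had a top peak. The median rank of 4703.5 became 4105 over the highest summit of each gene and 4050 over matched peaks in replicate 3. The median over genes of the geometric mean rank, 4712, ranged from 3721 to 4997 with each replicate left out, lowest without replicate 3, an alternative chosen after the data were seen. The forkhead core was at 3 of 14 summits within 50 bp (21.0% of all summits) and at 9 within 200 bp (54.6%), in place of 5, and the heat shock element pair at 0 (2.97%) and 4 (10.6%), in place of 2. Some motif counts changed side of the share of all summits. The heat shock element pair was above that share within 100 bp and below it within 50 bp. The forkhead core was just below it within 100 bp and above it within 200 bp. These changes rest on few summits and were not tested.

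Leaving out a replicate gave 5 to 6 genes with a matched summit and 4 to 5 near a TSS, where all 3 replicates gave 5 and 4. No paired analysis was possible because the libraries form 1 group. Depth is unknown, so an empty locus shows only that no region passed the authors' calls. Signal that does not depend on foxo was not measured here, and several summits lie between a pair of genes.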
